A study of Equus caballus with 4 samples.

Results

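The genes described here encode integrin and laminin subunits. They were the genes whose non-control probes carried a symbol of an integrin α chain (*ITGA*), an integrin β chain (*ITGB*) or a laminin α, β or γ chain (*LAMA*, *LAMB*, *LAMC*) in the annotation of a horse microarray. The rule took 34 genes, 25 of integrins and 9 of laminins, out of 13938 genes with a symbol on the array, and these 34 genes had 84 probes. Equine satellite cells (ESC), the resident muscle precursor cells, had been isolated from the semitendinosus muscle of 6-month-old colts and preplated to lower the share of fibroblasts. Both groups grew and then differentiated in culture, and on day 2 of differentiation the treated group received HMB (β-hydroxy-β-methylbutyrate, formed in the body from leucine) for 24 h, whereas the control group stayed in medium without it until day 3. The labels give the amount of HMB as 50 µg and the methods give 50 µM, and the description field of the labels calls the cells GO-treated where titles and source names say HMB. RNA of HMB-treated cells (Cy5) and of control cells (Cy3) was hybridised together on each of 4 arrays, called biological replicates in the labels, so that the comparison asks which subunit transcripts differed after 24 h of HMB.

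Integrins are receptors of an α and a β chain that span the plasma membrane and tie the extracellular matrix to the actin cytoskeleton. Laminins are trimers of an α, a β and a γ chain, secreted into the basement membrane, where integrins and dystroglycan bind them. In skeletal muscle the basal lamina around each fibre is rich in laminin with the α2 chain, satellite cells lie beneath it, and myoblasts change the integrins at their surface as they differentiate and fuse.

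Values are log2 ratios of HMB-treated over control, so a negative value means less signal in HMB-treated cells. Tests covered probes with at least 1 channel that exceeded background well on every array, the same channel each time, and a difference was called at an adjusted p of at most 0.05 (limma, two-sided, Benjamini-Hochberg over 27384 tested probes). Where a gene had several tested probes, the brightest on average stood for it. All 4 arrays lay on 1 slide and had the same dye orientation, so a dye bias of a probe is part of its ratio. It was not stated which colts each array drew on, and the p-values measure the spread between these samples, which may be technical. The number of arrays limits the precision: an exact test over the signs of 4 arrays cannot give a two-sided p below 0.125.

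Of the 34 subunit genes, 24 were tested and 10 were not well above background. Differences past the threshold were found for 10 of the 24, of which 8 had less signal after HMB and 2 had more. Over all 9535 tested genes with a symbol 22.7% passed, 11.3% lower and 11.4% higher, and over all tested probes 22.8% passed. The median log2 ratio was −0.33 over the 24 subunit genes and 0.03 over all tested genes. Every one of the 4 arrays had a negative subunit median, at −0.19, −0.21, −0.31 and −0.33, whereas the medians of all tested genes were 0.04, 0.02, 0.02 and −0.00. In bulk RNA a smaller share of cells of a type and less RNA per cell cannot be told apart. Of the 24, 3 subunits, *ITGA8*, *ITGA11* and *ITGB7*, were well above background in control RNA on all 4 arrays but not in HMB RNA on all 4, and they entered the test through the channel in which they were brighter. Among the 21 genes bright in both channels on all 4 arrays, 7 were lower and 2 higher, with a median of −0.26. Which subunits these were, and on which arrays they differed, is shown in the plot of ratios by array.

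**Figure D1:**
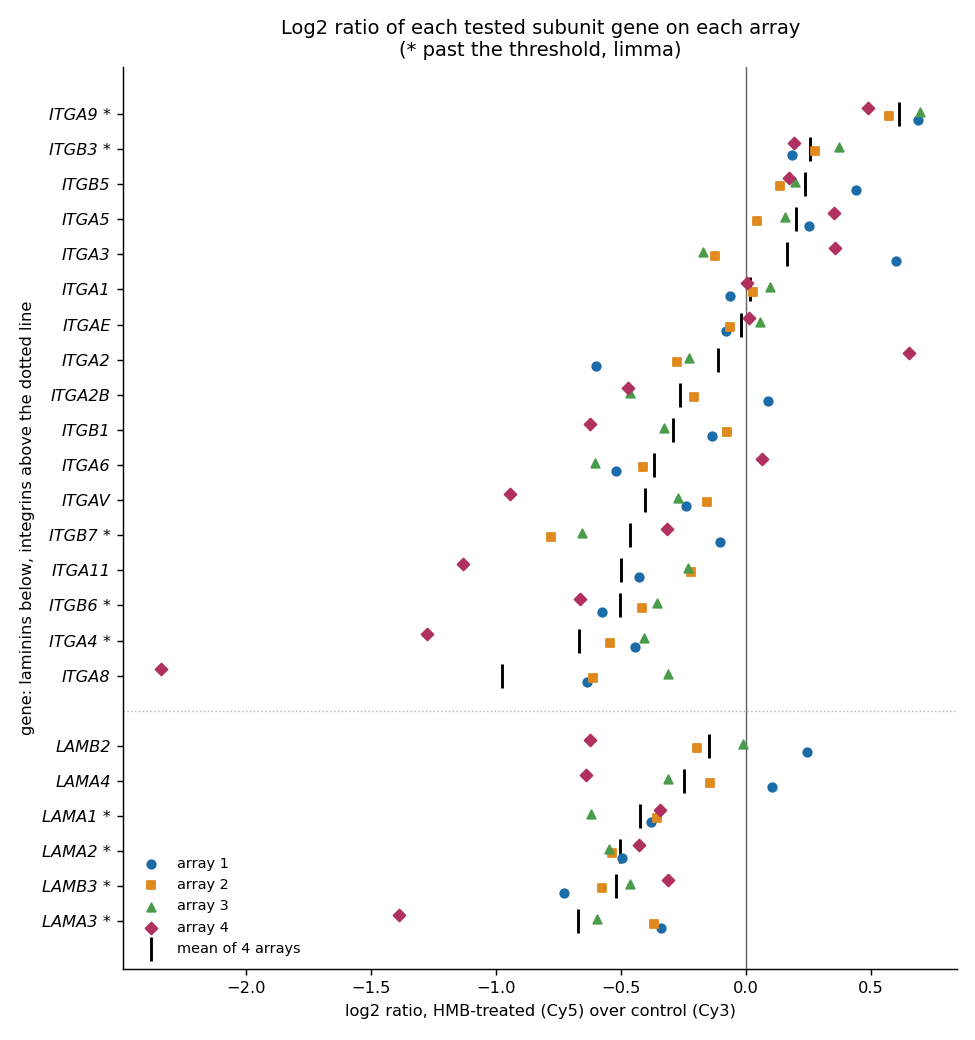
Log2 ratio of HMB-treated over control (x axis) for 23 of the 24 tested subunit genes (y axis) on each of 4 arrays, with the mean as a vertical bar; an asterisk marks the 9 of these genes past the threshold (limma). The array 4 values of *ITGA8* (−2.34), *LAMA3* (−1.39) and *ITGA4* (−1.28) lie far to the left, and *ITGA9* lies to the right of 0.49 on all 4 arrays.

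Of 9 laminin genes 7 were tested, and 5 of these fell, 0 rose and 2 did not pass (71.4% past the threshold, beside 22.7% of all tested genes). All 7 means were negative, with a median of −0.46. The number lower was 1 by a one-sample t-test of each probe's values, 3 when both channels were compared as separate samples and 3 with no filter on dim probes. It was 4 without array 1, 2 or 3, 5 without array 4, and 4 with the mean of a gene's tested probes. The direction of the median was the same with another background correction (−0.32) and without lowess normalisation (−0.49). For the higher direction limma gave 0 genes also at an unadjusted p under 0.05, and the t-test likewise gave 0. *LAMB4* and *LAMC3* were not well above background on any array.

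*LAMA2* encodes the α2 chain of the muscle basal lamina, the chain lost in merosin-deficient muscular dystrophy. Its log2 ratios on arrays 1 to 4 were −0.50, −0.54, −0.55 and −0.42. The 4 arrays lay close together and all were lower in HMB-treated cells. The mean was −0.50 (SD 0.06, *n* 4; adjusted p 0.00426, limma), and its other tested probe gave −0.49. *LAMA2* passed the threshold in each of 14 alternative analyses, with adjusted p from 0.00171 to 0.0374. Among the alternatives is the deposited table of the series, which holds the same ratios and could not change a call. The probe is shown because its reading frame ends in the stop codon, marked in capitals, which places it at the 3′ end of the coding sequence. It lies in transcript ENSECAT00000025657 at chr10:70788394-70788453, plus strand, in build EquCab1, the build named in the files.
LAMA2: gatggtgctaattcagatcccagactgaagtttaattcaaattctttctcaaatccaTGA

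*LAMA1* encodes the α1 chain, typical of embryonic basement membranes. Its log2 ratios were −0.38, −0.35, −0.62 and −0.34. Array 3 was the lowest, apart from the other arrays, and all 4 were below 0. The mean was −0.42 (SD 0.13, *n* 4; adjusted p 0.012, limma). The mean was −0.21 with another background correction (adjusted p 0.037, limma) and without lowess normalisation −0.65 (0.00551). When both channels were compared as separate samples the adjusted p was 0.319, the highest of its alternatives, and by the t-test it was 0.079.

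The genes *LAMA3* and *LAMB3* encode the α3 and β3 chains, known from basement membranes of epithelia. Both fell. For *LAMA3* the log2 ratios were −0.34, −0.37, −0.60 and −1.39. Array 4 was far lower than the others. The mean was −0.67 (SD 0.49, *n* 4; adjusted p 0.0407, limma). The call was lost when array 1 (adjusted p 0.0615), array 2 (0.0657) or array 3 (0.104) was left out. When array 4 was left out the mean was −0.43 (adjusted p 0.0235, limma), in a range of 0.0235 to 0.196 over 14 alternatives. The mean over its probes did not pass (−0.64; adjusted p 0.0569, limma). Its other 3 tested probes had means of −0.73 to −0.56 and did not pass. A pair of these carried an identical sequence, with means of −0.56 (SD 0.50) and −0.73 (SD 0.60). Of the pair, the probe with the mean of −0.73 was the lower on every array. The sequence, shown here as the only one spotted as a pair among these subunits, lies in ENSECAT00000022904 at chr8:38903339-38903398 (EquCab1, plus strand).
LAMA3: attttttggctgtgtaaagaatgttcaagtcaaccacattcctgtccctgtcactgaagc

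For *LAMB3* the log2 ratios were −0.72, −0.58, −0.46 and −0.31. All 4 arrays were lower in HMB-treated cells, array 1 the most. The mean was −0.52 (SD 0.18, *n* 4; adjusted p 0.00977, limma). The mean was −0.32 with another background correction (adjusted p 0.00888, limma). With no filter on dim probes its adjusted p was 0.0513 and by the t-test 0.0855, within a range that began at 0.00165. *LAMB3* stayed past the threshold whichever array was left out.

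The tested laminin genes *LAMA4* and *LAMB2* did not pass. *LAMA4*, for the α4 chain of vessel walls and other mesenchymal basement membranes, had log2 ratios of 0.10, −0.14, −0.31 and −0.64, with a mean of −0.25 (SD 0.31; adjusted p 0.184, limma). *LAMB2*, for the β2 chain enriched at the neuromuscular junction, had values of 0.24, −0.20, −0.01 and −0.62, with a mean of −0.15 (SD 0.36; adjusted p 0.471, limma). In both genes array 1 was above 0 and array 4 was the lowest. Without array 4 the *LAMB2* mean was 0.01 (adjusted p 0.938, in a range of 0.19 to 0.938) and the *LAMA4* mean −0.12 (0.421, in a range of 0.0805 to 0.56). Without lowess normalisation the means were −0.08 for *LAMA4* (adjusted p 0.56) and −0.07 for *LAMB2* (0.696). A further 5 probes named *LAMA4* only through RefSeq had means of −0.30 to −0.18 and none passed. *LAMA5*, *LAMB1* and *LAMC1* were not analysed here.

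**Figure D2:**
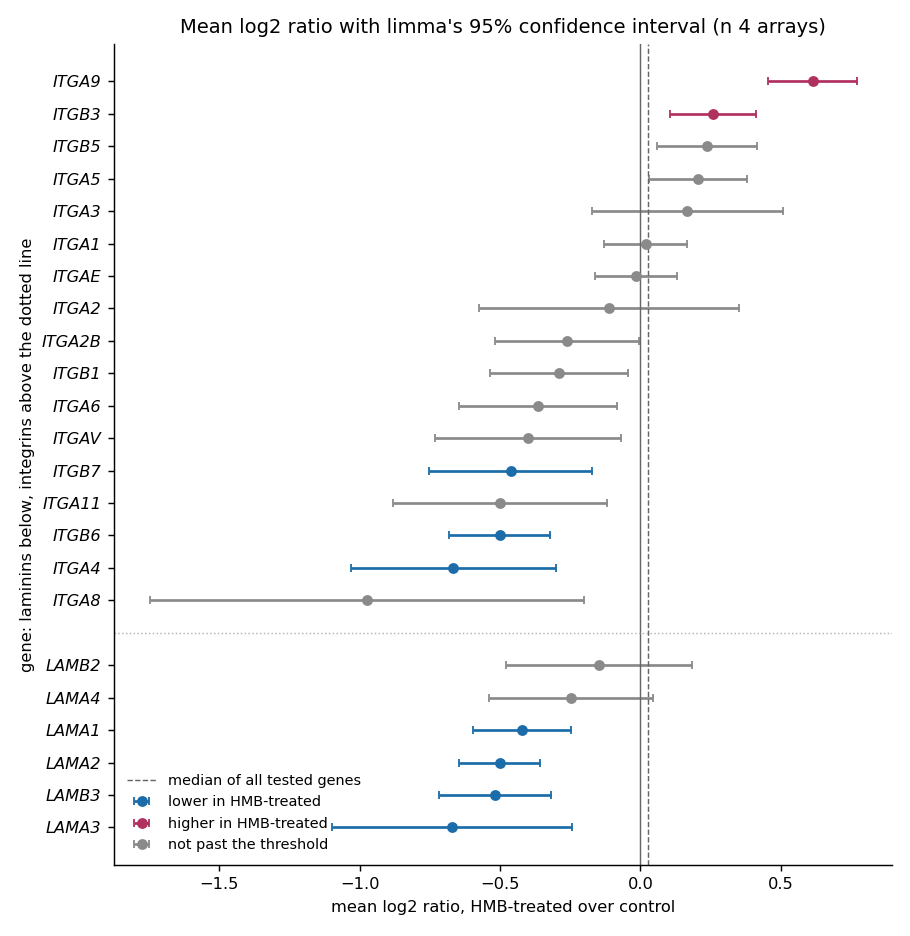
Mean log2 ratio (x axis) with limma's 95% confidence interval for 23 of the 24 tested subunit genes (y axis), *n* 4 arrays, coloured by whether the gene was lower, higher or not past the threshold. The intervals of *LAMA4* and *LAMB2* include 0, and the interval of *ITGA8*, −1.75 to −0.20, is the widest.

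Among integrins 17 of 25 genes were tested, and 3 fell, 2 rose and 12 did not pass (29.4% past the threshold, beside 22.7% of all tested genes). The median log2 ratio was −0.26, and it remained negative with another background correction (−0.18) and without lowess normalisation (−0.21). The medians on arrays 1 to 4 were −0.10, −0.16, −0.23 and 0.00. Counts were small and moved with the arrays: 1 gene was lower without array 2, 1 without array 3 and 5 without array 4, and 1 was higher without array 1, 2 or 3. With no filter on dim probes 1 was lower and 1 higher, as with both channels as separate samples, and with another background correction 6 were lower and 1 higher. Restricted to the 14 integrin genes bright in both channels, 2 were lower and 2 higher, and the median was −0.06.

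The α4 and α9 chains form a subfamily of their own, and their genes moved in opposite directions. *ITGA4* encodes the partner of β1 or β7 in receptors for fibronectin and VCAM1. Its log2 ratios were −0.44, −0.54, −0.41 and −1.28. Array 4 stood apart as the lowest, and the other arrays were close together. The mean was −0.67 (SD 0.41, *n* 4; adjusted p 0.0262, limma). Leaving out array 1 gave an adjusted p of 0.0544, array 2 gave 0.0662, array 3 gave 0.0532 and array 4 gave 0.0125 (limma), in a range of 0.0125 to 0.158. Of its 5 tested probes 4 were lower, and all 5 means lay between −0.67 and −0.45. Those 4 probes overlap and are not independent measurements, and the probe apart from them did not pass (−0.45; adjusted p 0.0577, limma).

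*ITGA9* encodes the partner of β1 that binds osteopontin and tenascin-C. Its log2 ratios were 0.69, 0.58, 0.70 and 0.49. All 4 arrays were higher in HMB-treated cells and lay close together. The mean was 0.61 (SD 0.10, *n* 4; adjusted p 0.00324, limma), and it passed in all 14 alternatives, with adjusted p from 0.002 to 0.0465. Of its 4 tested probes 3 were higher, and their means ran from 0.30 to 0.93. The probe at 0.93 was above background in control RNA on 3 of 4 arrays and entered the test through the HMB channel. A pair of neighbouring probes in ENSECAT00000008300 is shown because they share 18 bases, in capitals, and had means of 0.56 (SD 0.20) and 0.93 (SD 0.38). Probe A lies at chr16:47462145-47462204 and probe B at chr16:47462187-47466145 (EquCab1, minus strand). The 60 bases of probe B cover 3959 bases of the genome, so it spans an exon junction.
ITGA9 probe A: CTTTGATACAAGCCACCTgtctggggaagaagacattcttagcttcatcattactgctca
ITGA9 probe B: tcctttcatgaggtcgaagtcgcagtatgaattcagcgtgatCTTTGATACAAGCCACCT

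Probe B gave 0.73, 0.65, 1.49 and 0.85 on arrays 1 to 4 and probe A 0.56, 0.55, 0.80 and 0.31. Array 3 was the highest for both, and the control signal of probe B was lowest there, at 14.2. Since they overlap, these probes are not independent measurements of the gene.

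Of the α subunits that recognise the tripeptide arginine, glycine, aspartate, 4 were tested. By their brightest probe 0 passed (limma, beside 22.7% of all tested genes), and all 4 had an unadjusted p under 0.05. *ITGA8*, for a receptor of nephronectin, had log2 ratios of −0.63, −0.61, −0.31 and −2.34. Array 4 was far below the others. The mean was −0.97 (SD 0.92, *n* 4; adjusted p 0.0741, limma), and without array 4 the mean was −0.52 and the adjusted p 0.02, in a range of 0.0189 to 0.361 over 13 alternatives. Another background correction gave a mean of −0.36 (adjusted p 0.0394, limma). Its other tested probe gave −1.31, −1.03, −1.15 and −2.05, with a mean of −1.39 (SD 0.46; adjusted p 0.00435, limma). HMB RNA was above background for the brightest probe on 3 of 4 arrays and for the other on 2, so both entered the test through control RNA and the sizes of their ratios rest in part on dim signals. *ITGAV*, the αv chain shared by several β partners, had values of −0.24, −0.16, −0.27 and −0.94, again with array 4 apart. Its mean was −0.40 (SD 0.37; adjusted p 0.0819, limma), and 1 of its 6 tested probes was lower. Without array 4 the *ITGAV* mean was −0.22 (adjusted p 0.0657), and the mean over its probes passed (−0.33; 0.0427), in a range of 0.0427 to 0.253. *ITGA5*, for the classical fibronectin receptor, had values of 0.25, 0.05, 0.16 and 0.36, all above 0, and a mean of 0.20 (SD 0.13; adjusted p 0.0905, limma). The other tested *ITGA5* probe gave 0.50, −0.06, −0.09 and −0.09, with a mean of 0.06 (SD 0.29; adjusted p 0.723, limma). *ITGA2B*, the α chain of the platelet fibrinogen receptor, had values of 0.09, −0.21, −0.46 and −0.47. Its mean was −0.26 (SD 0.26; adjusted p 0.125, limma), and without array 1 the adjusted p was 0.0418, in a range of 0.0418 to 0.36.

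Collagen-binding α subunits gave 0 genes past the threshold of 3 tested (limma, beside 22.7% of all tested genes), with 1 at an unadjusted p under 0.05. *ITGA11*, for a receptor of fibrillar collagen in mesenchymal cells, had log2 ratios of −0.42, −0.22, −0.23 and −1.13. Array 4 was the lowest, and HMB RNA was above background on 3 of 4 arrays. The mean was −0.50 (SD 0.43, *n* 4; adjusted p 0.0665, limma), and without array 4 the mean was −0.29 and the adjusted p 0.049, in a range of 0.0203 to 0.47. It also passed with another background correction (−0.27; adjusted p 0.0203, limma) and without lowess normalisation (−0.75; 0.033). *ITGA2*, a collagen receptor subunit, had values of −0.60, −0.27, −0.22 and 0.65. Here array 4 was the highest and of opposite sign. Its mean was −0.11 (SD 0.54; adjusted p 0.703, limma), and the mean was 0.05 without array 1 and −0.37 without array 4 (adjusted p 0.0524, in a range of 0.0524 to 0.893). Its other tested probes had means of −0.28 and −0.41 and did not pass. HMB RNA was above background for these on 3 and 2 of 4 arrays. They entered the test through control RNA, so the sizes of their ratios rest in part on dim signals. *ITGA1*, another collagen receptor subunit, lay between −0.06 and 0.10 on all 4 arrays, with a mean of 0.02 (SD 0.07; adjusted p 0.85, limma). Its sign turned with another background correction (−0.02) and without array 3 (−0.01). *ITGA10* had 5 overlapping probes, none of them above background.

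Of the laminin-binding α subunits on the array *ITGA3* and *ITGA6* were tested and 0 passed (limma, beside 22.7% of all tested genes). An unadjusted p under 0.05 was found for 1 of them. *ITGA6* encodes the partner of β1 or β4. Its log2 ratios were −0.52, −0.41, −0.60 and 0.07. Array 4 differed from the others and lay near 0. The mean was −0.37 (SD 0.30, *n* 4; adjusted p 0.0686, limma), and without array 4 the adjusted p was 0.0117, in a range of 0.0117 to 0.225. It also passed with another background correction (−0.37; adjusted p 0.0483, limma) and with an intensity trend and robust prior (0.0499). *ITGA3* had values of 0.60, −0.12, −0.17 and 0.36, with a mean of 0.17 (SD 0.38; adjusted p 0.425, limma). Its mean was 0.02 without array 1 (adjusted p 0.913) and 0.01 without lowess normalisation (0.956), in a range of 0.284 to 0.956. *ITGA7* was not analysed here.

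The probes of 6 tested α subunits carried the codons of a short motif that the cytoplasmic tails of α chains share just inside the membrane: glycine, phenylalanine, phenylalanine, any residue, arginine. They are shown to let the subunits be compared at this common site, with the 15 bases of the motif in capitals. Such codons were found in a forward frame of 29 of 43603 probes (0.0665%), and in 11 of 49 probes of integrin α genes. A further 5 of the 11 belonged to *ITGA10*. The coordinates in EquCab1 are chr21:14811147-14811206 (minus strand) for *ITGA1*, chr21:14689385-14689901 (minus) for *ITGA2*, chr11:17967155-17967989 (plus) for *ITGA2B*, chr6:71271169-71271874 (minus) for *ITGA5*, chr29:18548921-18550683 (plus) for *ITGA8* and chr18:52066788-52067104 (plus) for *ITGAV*. All except that of *ITGA1* cover more genome than their 60 bases and so span an exon junction.
ITGA1: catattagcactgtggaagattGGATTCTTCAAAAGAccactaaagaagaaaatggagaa
ITGA2: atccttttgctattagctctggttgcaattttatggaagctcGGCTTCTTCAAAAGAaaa
ITGA2B: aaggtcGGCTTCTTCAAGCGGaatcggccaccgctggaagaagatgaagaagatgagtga
ITGA5: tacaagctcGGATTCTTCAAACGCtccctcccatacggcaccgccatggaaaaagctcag
ITGA8: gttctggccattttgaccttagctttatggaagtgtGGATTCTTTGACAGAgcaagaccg
ITGAV: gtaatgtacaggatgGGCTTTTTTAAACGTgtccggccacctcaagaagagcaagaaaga

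By these probes the mean log2 ratios ran from −0.97 for *ITGA8* to 0.20 for *ITGA5*. None of the 6 passed the threshold (limma, beside 22.8% of all tested probes). The HMB signal of *ITGA8* was dim on array 4, and its mean was −0.52 without that array and −0.36 with another background correction.

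Among β subunits *ITGB6* fell and *ITGB3* rose, and *ITGB7* passed as lower with HMB RNA dim on some arrays. *ITGB6* encodes the partner of αv that activates latent transforming growth factor β and is known from epithelia. Its log2 ratios were −0.57, −0.41, −0.35 and −0.66. All 4 arrays were lower in HMB-treated cells. The mean was −0.50 (SD 0.14, *n* 4; adjusted p 0.00787, limma), and it passed whichever array was left out. Its mean was −0.33 with another background correction (adjusted p 0.0103, limma), and by the t-test it did not pass (0.0734), in a range of 0.00416 to 0.0734. The probe, at chr18:29266415-29266474 (EquCab1, minus strand) in ENSECAT00000024051, is shown with the 40 bases in capitals that it shares with a neighbouring probe that was not well above background. The other tested probe of the gene lies in the same transcript at chr18:29266375-29266434 and had a mean of −0.36 (SD 0.31; adjusted p 0.0768, limma), which did not pass.
ITGB6: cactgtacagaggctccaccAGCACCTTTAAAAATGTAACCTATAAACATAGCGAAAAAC

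*ITGB7*, a leukocyte chain that pairs with α4 or αE, had log2 ratios of −0.10, −0.78, −0.66 and −0.31. All were below 0, arrays 2 and 3 the most. The mean was −0.46 (SD 0.31, *n* 4; adjusted p 0.0392, limma), with HMB RNA above background on 2 of 4 arrays. With another background correction the mean was −0.18 and did not pass (adjusted p 0.0679, limma), and without lowess normalisation it was −0.76 (0.00896). Leaving out array 2 gave an adjusted p of 0.132, array 3 gave 0.139 and array 4 gave 0.0621 (limma), in a range of 0.00896 to 0.176. *ITGB3*, the partner of αv and of the platelet α chain, had values of 0.19, 0.28, 0.37 and 0.19. All were above 0, array 3 the most. The mean was 0.26 (SD 0.09, *n* 4; adjusted p 0.0339, limma), and 1 of its 4 tested probes was higher, with means from 0.03 to 0.26. Processed signals of the brightest *ITGB3* probe were low, from 23.7 to 42.9. The other 3 probes were above background in 1 of the channels on 3 of 4 arrays. Leaving out array 1 gave an adjusted p of 0.0527, array 2 gave 0.148 and array 3 gave 0.152 (limma), so the call was lost each time. With another background correction its mean was 0.07 (0.316) and without lowess normalisation 0.02 (0.873), and over its probes 0.16 (0.151), in a range of 0.0324 to 0.873.

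*ITGB1*, the β chain that most α chains of muscle cells pair with, had log2 ratios of −0.14, −0.07, −0.33 and −0.62. All were below 0, array 4 the lowest. The mean was −0.29 (SD 0.25, *n* 4; adjusted p 0.0877, limma), the means of its 5 tested probes ran from −0.29 to −0.11, and none passed. With another background correction *ITGB1* passed (−0.35; adjusted p 0.0444, limma), whereas its mean was −0.06 without lowess normalisation (0.621) and −0.18 without array 4 (0.157), in a range of 0.0444 to 0.621. *ITGB5*, a vitronectin receptor chain, had values of 0.44, 0.14, 0.20 and 0.17, with a mean of 0.24 (SD 0.14; adjusted p 0.0632, limma). It passed with an intensity trend and robust prior (adjusted p 0.0491, in a range of 0.0491 to 0.293).

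Genes of leukocyte integrins were mostly dim. *ITGAD*, *ITGAL* and *ITGAM* were above background on 0 of 4 arrays in either channel, *ITGAX* on at most 2 and *ITGB2*, their common β chain, on 2. *ITGAE*, for the αE chain that binds E-cadherin, was tested and had values of −0.08, −0.06, 0.06 and 0.01, with a mean of −0.02 (SD 0.06; adjusted p 0.859, limma). Its sign turned without lowess normalisation (0.03) and without array 1 (0.00309). The other tested *ITGAE* probe was below 0 on all 4 arrays, with a mean of −0.15 (SD 0.07; adjusted p 0.124, limma), and did not pass. *ITGB8* was above background on 0 arrays and *ITGB4*, the β chain of hemidesmosomes, on 3.

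**Figure D3:**
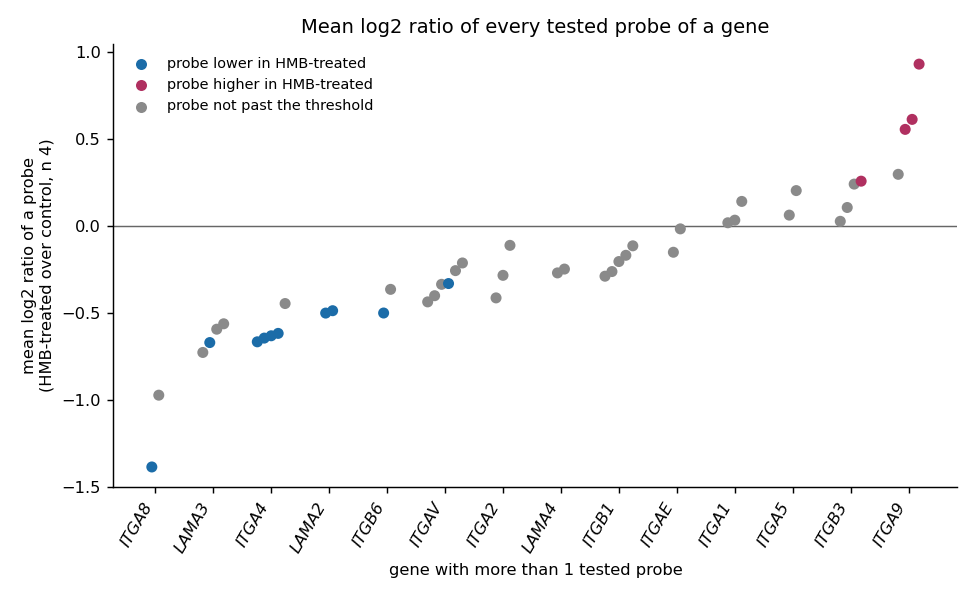
Mean log2 ratio (y axis, *n* 4 arrays) of each tested probe for the 14 subunit genes with more than 1 tested probe (x axis), coloured by the test of that probe. Within each of the 14 genes all means have one sign; the highest probe of *ITGA9*, at 0.93, and the lowest of *ITGA8*, at −1.39, were dim on some arrays in the channel of lower signal.

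Of 84 subunit probes 56 were tested, and 14 were lower and 4 higher, beside 22.8% of all tested probes past the threshold. In all 14 genes with several tested probes the means had one sign, as the plot of probe means shows. *LAMA2* had the narrowest range, −0.50 to −0.49. Some tested probes passed and others did not in *ITGA4*, *ITGA8*, *ITGA9*, *ITGAV*, *ITGB3*, *ITGB6* and *LAMA3*. The probes of *ITGB3* started a single base apart and so shared nearly all of their bases. Some tested probes of *ITGA4*, *ITGA9*, *ITGAV*, *ITGB1*, *ITGB6*, *LAMA3* and *LAMA4* overlapped as well. Overlapping probes are not independent measurements, so the probe counts and the shared signs rest in part on the same bases. In position, *ITGA4*, *ITGA6*, *ITGAV* and *ITGB6* lay on chromosome 18, with negative means for all 4 and 2 past the threshold. Over all 24 tested subunit genes 18 means were negative. Chromosome 11 held 5 subunit genes, of which 4 were tested. The 4 genes on chromosome 13, *ITGAD*, *ITGAL*, *ITGAM* and *ITGAX*, were all dim.

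**Figure D4:**
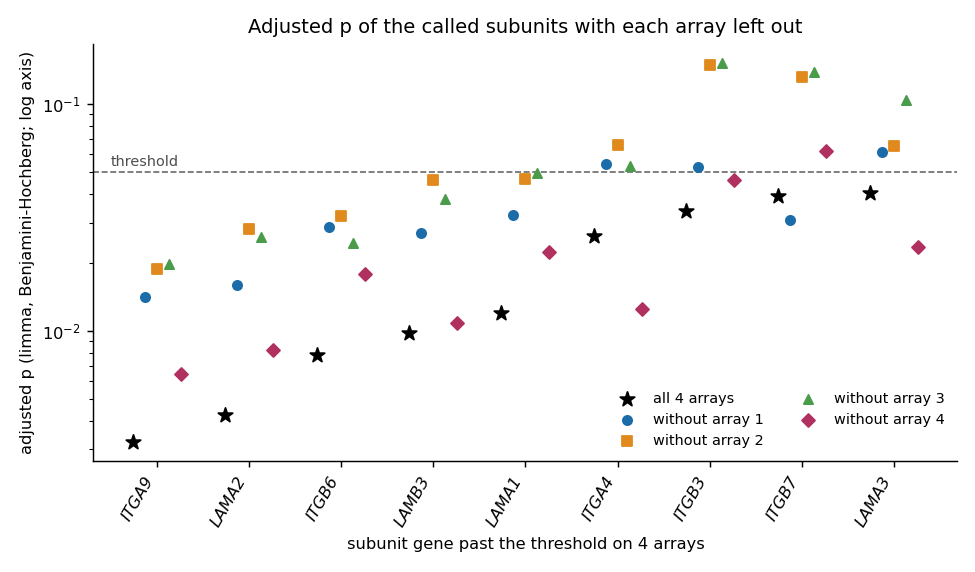
Adjusted p (y axis, log scale; limma with Benjamini-Hochberg adjustment) of 9 of the 10 subunit genes past the threshold, with all 4 arrays (star) and with each array left out; the dashed line is the threshold of 0.05. The 5 genes on the left stay at or below it whichever array is left out, and *ITGA4*, *ITGB3*, *ITGB7* and *LAMA3* do not.

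Of the 10 subunit genes past the threshold 6, among them *ITGA9*, *ITGB6*, *LAMA1*, *LAMA2* and *LAMB3*, also passed without each array in turn, as the plot of adjusted p with each array left out shows. The number that passed was 7 without array 1, 6 without array 2, 6 without array 3 and 9 without array 4. By the t-test *ITGA9* (adjusted p 0.0465) and *LAMA2* (0.0374) passed, and the counts at an unadjusted p under 0.05 were 6 lower and 3 higher.

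Partners of the subunits were taken from lists. Of 24 basement membrane components and other laminin receptors listed, 15 were tested, and 7 were lower and 0 higher (46.7%, beside 22.7% of all tested genes), with a median of −0.30. The largest falls were those of *SDC2* (−0.82, SD 0.55), a heparan sulphate proteoglycan, *SMOC2* (−0.70, SD 0.43), a matricellular protein, *SPARC* (−0.67, SD 0.33), a collagen-binding glycoprotein, and *DAG1* (−0.57, SD 0.30), the precursor of dystroglycan. These calls depended on the arrays and on scaling. The number lower was 4 without array 1, 1 without array 2, 0 without array 3, where 8 had an unadjusted p under 0.05, and 6 without array 4, and it was 3 with both channels as separate samples and 1 with no filter on dim probes. Without lowess normalisation *SPARC* turned to 0.26 (adjusted p 0.0689, in a range of 0.00802 to 0.131), 6 genes were lower and 2 higher. *SPARC* did not pass with another background correction (−0.32; adjusted p 0.116) or without array 3 (0.0624), *SDC2* and *SMOC2* did not without array 1, 2 or 3 (0.0505 to 0.066), and *DAG1* did not without array 2, 3 or 4 (0.0558 to 0.0769). By limma 0 genes of the list were higher also at an unadjusted p under 0.05, and the t-test gave 0 in either direction, with 7 lower and 0 higher before adjustment.

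Of 42 other integrin ligands listed, 27 were tested, and 4 were lower and 2 higher (22.2%, beside 22.7% of all tested genes), with a median of −0.14. Without lowess normalisation 6 were lower and 6 higher, with a median of −0.01, and the t-test gave 1 lower and 2 higher. With no filter on dim probes 2 were lower, and with both channels as separate samples 1 was. *SPP1*, which encodes osteopontin, a ligand of α9 and αv integrins, had log2 ratios of −1.36, −1.19, −1.58 and −1.77. All 4 arrays were lower in HMB-treated cells. Its mean was −1.48 (SD 0.26, *n* 4; adjusted p 0.00113, limma), and it passed in all 14 alternatives. Smaller falls were those of *CTGF* (−0.38, SD 0.11), *ADAM15* (−0.35, SD 0.19) and *MFGE8* (−0.34, SD 0.19). *EDIL3*, a ligand of αv integrins, rose by 0.48 (SD 0.07; adjusted p 0.00506, limma) and passed in all 14 alternatives. *F11R*, an adhesion molecule of tight junctions, was well above background in HMB RNA on all 4 arrays and in control RNA on 0. It entered the test through HMB RNA, the channel in which it was brighter, and is 1 of the 2 higher genes counted above (adjusted p 0.00135, limma, in a range of 0.00125 to 0.0455). No fold is given since the control signal was dim on all 4 arrays. When signal was asked for in both channels, 26 genes of the list were tested, and 4 were lower and 1 higher. The numbers lower without arrays 1 to 4 in turn were 5, 2, 1 and 2. *CTGF* was lost without array 3 (adjusted p 0.0657), *MFGE8* without array 2, 3 or 4 (up to 0.141) and *ADAM15* whichever array was left out (0.0527 to 0.126).

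Of 36 adaptors, signalling proteins and other partners of integrins listed, 24 were tested, and 2 were lower and 2 higher (16.7%, beside 22.7% of all tested genes), with a median of −0.04. The t-test gave 1 lower and 1 higher, and so did the fit with no filter on dim probes. *ITGB1BP2*, which encodes the muscle protein melusin that binds the β1 tail, had values of −0.87, −0.94, −0.88 and −1.14. The arrays lay close together. The mean was −0.96 (SD 0.13, *n* 4; adjusted p 0.00117, limma), and it passed in all 14 alternatives. *ACTN1*, an actin crosslinker at adhesion sites, fell by 0.51 (SD 0.22; adjusted p 0.0143, limma), and without lowess normalisation its mean was −0.02 (adjusted p 0.883, the highest of a range that began at 0.00659). *ACTN1* was also lost by the t-test (adjusted p 0.105), with no filter on dim probes (0.0688) and with both channels as separate samples (0.0787). *ITGBL1*, an integrin β-like secreted protein, rose by 0.32 (SD 0.19; adjusted p 0.0405, limma), and *ILKAP*, a phosphatase that acts on integrin-linked kinase signalling, by 0.21 (SD 0.02; adjusted p 0.0463, limma). *ITGBL1* passed without array 4 (adjusted p 0.022) and not without array 1 (0.085), array 2 (0.153) or array 3 (0.156), in a range of 0.022 to 0.168. *ILKAP* did not pass whichever array was left out (adjusted p 0.063 to 0.2).

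**Figure D5:**
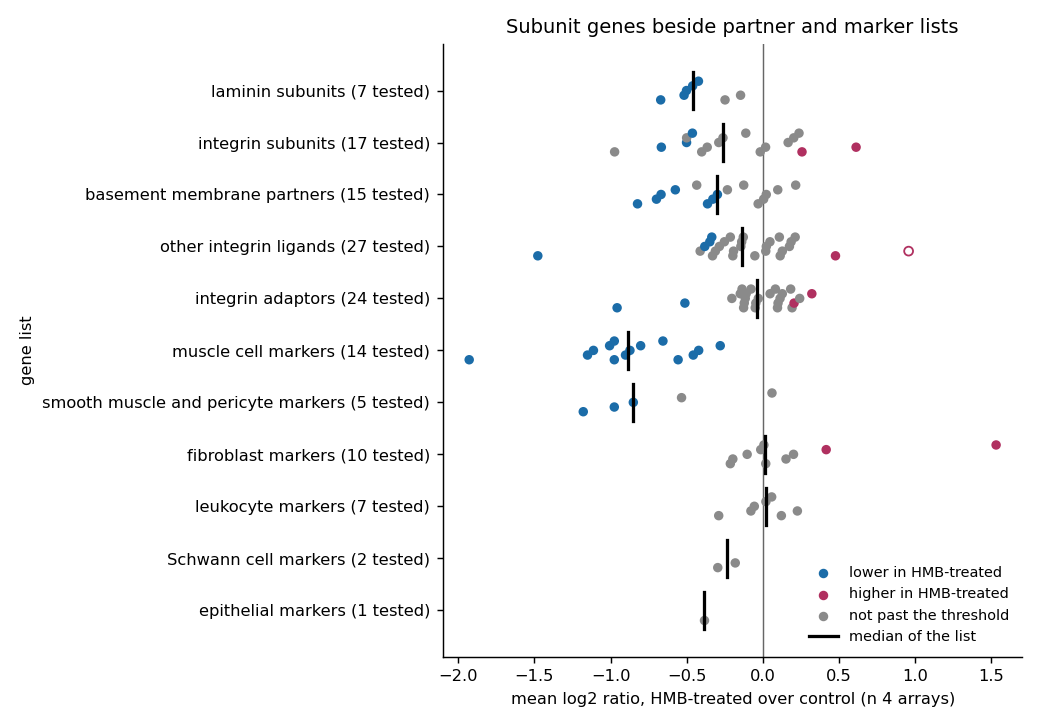
Mean log2 ratio (x axis, *n* 4 arrays) of each tested gene of the subunit families and of the partner and marker lists (y axis), coloured by the test, with the median of each list as a black bar. The open circle is *F11R*, drawn at its measured ratio, which rests on a control signal that was dim on all 4 arrays; all 14 tested muscle markers lie to the left of 0, as do all 7 laminin subunits.

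Of 19 muscle markers listed, 14 had a probe and all 14 were tested and lower (beside 11.3% of all tested genes), with a median of −0.89, and 5, among them *PAX7*, had no probe under that symbol. The largest falls were those of *MYH8* (−1.93, SD 0.36) and *MYH3* (−1.11, SD 0.47), for developmental myosin heavy chains, *TNNC2* (−1.15, SD 0.27), for a troponin C, and *MYF5* (−1.01, SD 0.18), for a myogenic regulatory factor. Without lowess normalisation the *MYH3* mean was −0.42 (adjusted p 0.0445, limma, in a range of 0.00431 to 0.105) and the list median −0.64. Medians of the list by array were −0.43, −0.80, −1.06 and −1.22. Summed over the list, processed signals of control RNA on arrays 1 to 4 were 224715, 226949, 241699 and 253367, and those of HMB RNA were 164733, 116847, 107541 and 95988. The brightest was *MYH3*. The number lower was 13 without array 1, 9 without array 2, 7 without array 3 and 11 without array 4. By the t-test 0 passed after adjustment and 13 before it, and with no filter on dim probes 4 passed. The part of this shift in the laminin and integrin results was not tested.

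Fibroblast markers were present, with 10 of 12 listed tested, 0 lower and 2 higher (20.0%, beside 22.7% of all tested genes) and *COL1A2* the brightest. These were *PDGFRA* (1.53, SD 0.47), a growth factor receptor, and *FAP* (0.42, SD 0.18), a membrane protease. The *PDGFRA* mean was 0.89 with another background correction (adjusted p 0.0062, limma, in a range of 0.00173 to 0.0775). Their number was 1 without array 1, 2 or 3 and 3 without array 4, and *FAP* did not pass without array 1, 2 or 3 (adjusted p 0.0527 to 0.0802). The list had a median of 0.01, and of 0.39 without lowess normalisation, where 5 were higher. With no filter on dim probes 1 was higher. Summed signals of the fibroblast list on arrays 1 to 4 were 330360, 310102, 340761 and 432836 in control RNA and 397599, 289069, 312710 and 312485 in HMB RNA. At an unadjusted p under 0.05 limma gave 0 lower and 2 higher, as did the t-test, by which 0 passed after adjustment. Their part in the subunit results was not tested either.

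Of 8 smooth muscle and pericyte markers 5 were tested and 3, *MYH11* (−1.18, SD 0.86), *DES* (−0.98, SD 0.37) and *MCAM* (−0.85, SD 0.20), were lower (beside 22.7% of all tested genes past the threshold), with *DES* the brightest and also on the muscle list. *RGS5* was not above background. HMB RNA was above background for *MYH11* on 3 of 4 arrays and for *MCAM* on 2 of 4, and by the t-test 0 passed, with 2 lower before adjustment. When signal was asked for in both channels, 3 genes of the list were tested and 1, *DES*, was lower. The means with another background correction were −0.45 for *MYH11* (adjusted p 0.0204, limma, in a range of 0.00893 to 0.288) and −0.38 for *MCAM* (0.00553, in a range of 0.00127 to 0.134). *MYH11* did not pass without array 1, 2 or 3 (adjusted p 0.0535 to 0.0802), and 1 gene of the list passed with no filter on dim probes and 1 with both channels as separate samples. The summed signals on arrays 1 to 4 were 47336, 46202, 43675 and 44885 in control RNA and 37374, 29860, 24138 and 18481 in HMB RNA. Endothelial markers were tested for 0 of 11 listed, and *PECAM1*, *CDH5*, *KDR* and *VWF* were not well above background. Among leukocyte markers 7 of 15 were tested and 0 passed (limma, beside 22.7% of all tested genes). At an unadjusted p under 0.05 limma gave 1 lower and 1 higher, and so did the t-test. In this list 1 gene was higher past the threshold with another background correction, with an intensity trend and robust prior, and with signal asked for in both channels. *CD14* was the brightest, *CSF1R*, *AIF1*, *TYROBP* and *CD3E* were dim, and the sums ran from 6548 to 7302 in control RNA and from 6795 to 8230 in HMB RNA. Schwann cell markers were tested for 2 of 7, *PMP22* the brightest and *SOX10* and *S100B* dim, with sums of 4983 to 6645 in control and 4626 to 6178 in HMB RNA. Epithelial markers were tested for 1 of 8, *CLDN4*, with *EPCAM*, *CDH1*, *KRT5* and *KRT14* dim and sums of 31.0 to 60.9 in control and 19.3 to 60.5 in HMB RNA. For both lists limma called 0 genes (beside 22.7% of all tested genes), with 1 lower at an unadjusted p under 0.05 in each. The t-test called 0 before and after adjustment. Without lowess normalisation 1 gene of each list was lower, as was 1 Schwann cell gene without array 1 and 1 epithelial gene without array 4. The part of these lists in the subunit results was not tested.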

How the data were processed

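The log10 ratios of Cy5 (HMB) over Cy3 (control) had been made by the authors with Feature Extraction 10.10.1.1 (version and genome build EquCab1 per the file headers), after background subtraction, detrending and linear and lowess dye normalisation. The spot intensities of each channel, raw and background-subtracted, were used as deposited. The deposited table of the series held the same log10 ratios (largest difference 0, column medians 0), so its scale, centring and direction were known.

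Ratios were multiplied by the log2 of 10. Of 43803 non-control spots (1417 control spots were left out), those marked non-uniform or as population outliers were dropped (11, 17, 32 and 15 on arrays 1 to 4), and spots of a probe were averaged, which gave 43603 probes. No spot was saturated. A probe needed values on at least 3 arrays. An intercept was fitted to the 4 ratios of each probe with limma 3.58.1 in R 4.3.3 (data.table, version 1.17.8), with the array as the pair, two-sided tests, 95% confidence intervals and Benjamini-Hochberg adjustment. The fit was tested on simulated data. The precision is limited by the number of arrays. Tables and plots were made with Python 3.11.15, numpy 2.4.6, pandas 2.3.3, Biopython 1.88 and matplotlib 3.10.9.

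Symbols were those of the files for 24962 probes, and 1186 more were named through RefSeq accessions (assembly TB-T2T, used for names only). Subunits were named, except for items withheld, which are not reported here, and of each partner or marker list the 4 genes with the largest rise and the 4 with the largest fall past the threshold. Members and lists were chosen with earlier results of these data known. The planned rule for sequences, that their translation lie within the RefSeq protein, could not be applied without protein sequences. The probes shown were chosen after values were seen. Exon numbers and UTR limits were not analysed here.

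Alternatives were normexp background correction (offset 50) with loess, no lowess, a one-sample t-test, an intensity trend with a robust prior, both channels as separate samples, dim probes left in, a filter that asks for signal in both channels, the marked spots left in, the series table, the mean of a gene's tested probes, RefSeq names, and each array left out (at least 2 values). For partner and marker genes they were added after seeing the data.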

Additional observations from a re-analysis of the deposited data

Results flagged for a closer look

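In 4 of the 24 tested subunit genes a single array lay far from the other arrays, with a gap to its nearest neighbour above the 95% critical value of Dixon's test as a share of the range. These were *ITGA4* on array 4 (log2 ratio −1.28, gap 0.844 of the range), *ITGA8* on array 4 (−2.34, gap 0.842), *ITGAV* on array 4 (−0.94, gap 0.856) and *LAMA1* on array 3 (−0.62, gap 0.880). HMB RNA was not well above background for *ITGA8* on every array (3 of 4), and its array 4 signal, 8.35, lay below the lowest signal of probes well above background there (17.7), so that ratio rests on a dim value. Chance alone marks about 1 in 20 genes by this measure. The SD of log2 ratios over all tested probes was 0.349, 0.342, 0.392 and 0.477 on arrays 1 to 4, and its part in these values was not tested.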

How the results depend on the processing

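Past the threshold were 6257 probes (3186 lower, 3071 higher). A one-sample t-test gave 768 (422 lower, 346 higher), the comparison of both channels as separate samples, without the pairing by array (no replicate block), 2569 (1678 and 891), and no filter on dim probes 3690 (2099 and 1591). With an array left out the count ran from 2564 to 4981, with 1542 to 2701 lower and 929 to 2280 higher. The share of higher calls was 49.1%, and 34.7% without the pairing.

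Lower integrin genes numbered 3, against 6 with normexp, 0 by the t-test (2 at an unadjusted p under 0.05), 1 without the pairing, 1 with no filter, 5 with the mean of probes and 1 to 5 with an array left out. Higher integrin genes numbered 2, against 1 with normexp, 1 without lowess, 1 by the t-test, 1 without the pairing, 1 with no filter, 1 with the mean of probes and 1 to 2 with an array left out. Lower laminin genes numbered 5, against 1 by the t-test, 3 without the pairing and 3 with no filter. They numbered 4 with the mean of probes and 4 to 5 with an array left out. The cause was not tested.

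Signs turned for *ITGA1* with normexp (−0.0180), *ITGAE* without lowess (0.0294) and, added after seeing the data, *SPARC* (0.26) and *COL18A1* (0.00799) without lowess. With an array left out *ITGA1* ran from −0.00867 to 0.0443, *ITGA2* from −0.37 to 0.0510, *ITGAE* from −0.0419 to 0.00309 and *LAMB2* from −0.28 to 0.0125. Of 24 subunit genes, direction and side of the threshold held for 16 by the t-test, 17 with normexp, 21 without lowess, 19 without the pairing, 19 with no filter, 20 with the mean of probes and 20 with an intensity trend. They held for all 24 with marked spots kept and for all 21 tested with both channels above background. The series table holds the same ratios as the main fit, so its agreement for all 24 was fixed in advance. Signal over background limits the 10 dim genes.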
